A study of Populus tremula x Populus alba with 4 samples.

Results

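Xylan, the main hemicellulose of the poplar secondary wall, was followed here through 9 genes of the glycosyltransferases that build its backbone and its reducing end. The 9 were chosen by ID from the 41335 transcript IDs of the series, which carry no gene names. They comprise GT43A (Potri.006G131000.1) and GT43B (Potri.016G086400.1) of the IRX9 type, Potri.001G068100.1 and Potri.003G162000.1 of the IRX10 type, GT47C (Potri.009G006500.1) of the FRA8 type, GAUT12.1 (Potri.001G416800.1) and GAUT12.2 (Potri.011G132600.1), and Potri.002G132900.1 and Potri.014G040300.1, which are PARVUS-like GT8E genes. The members of the IRX10 pair are called IRX10-like a and b below, and those of the PARVUS-like pair GT8E-like a and b, each in the order just given. The names came with the list of IDs and were not checked against an annotation.

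Messenger RNA was sequenced from bark, the tissues outside the vascular cambium, of INRA 717-1B4, a clone of the hybrid Populus tremula x Populus alba that is widely used for genetic transformation. There were 2 libraries from MIR15 transgenic plants and 2 from wild-type (WT) plants of the same clone, which differ by label in the transgene alone. The labels call the 2 samples of each genotype biological replicates. They name neither the target of the MIR15 construct nor its promoter, and leave unsaid whether 1 transgenic line or several supplied the MIR15 samples. The question posed was how transcript levels in MIR15 bark differ from those in wild type. Replicate numbers are those of the titles; the deposited columns number the MIR15 libraries 2 and 3, so an equal number in both genotypes does not show a shared origin. Bark identity was not checked: its markers were listed by gene name, and the IDs carry none.

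Xylan is a chain of linked xylose units. In Arabidopsis, IRX9, IRX10 and IRX14 work in the complex that lengthens the chain in the Golgi: IRX10 carries xylosyltransferase activity and IRX9 is required for elongation. FRA8, IRX8 (the GAUT12 type) and PARVUS are needed in Arabidopsis for the short sugar sequence at the reducing end of the chain, and plants that lack them have thin, weak walls and collapsed xylem vessels. In bark, thick walls of this kind are found above all in the phloem fibres.

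Total gene reads ran from 68453851 to 69747662 in the MIR15 libraries and from 77052567 to 82789893 in the WT libraries. Levels are total gene reads per 1000000 reads of the library total (CPM). The files give no transcript lengths, so levels are compared between libraries and not between genes. Nearly all reads of the 9 genes were unique to them: the share matching more than 1 place ran from 0% to 0.0934% per gene, and 3 of the 9 had none. Over all tested genes, 17.7% had at least 5% of such reads. RNA from bulk bark cannot tell fewer cells of a type from less RNA per cell.

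The backbone genes were expressed in bark of both genotypes, with IRX10-like b detected in every library at low counts. GT43A, one of the IRX9-type genes, had 13.9 and 10.2 CPM in MIR15 replicates 1 and 2, against 14.1 and 10.1 CPM in WT replicates 1 and 2. The genotypes covered almost the same range, and in each of them replicate 1 was the higher library. GT43B, its paralog, had 22.1 and 18.04 CPM in MIR15 and 24.2 and 19.2 CPM in WT, again with the library numbered 1 the higher in each genotype. The next lower ID to GT43A, Potri.006G130900.1, was the gene with the third most reads of the series, at 2457 ± 90.6 CPM in MIR15 and 2371 ± 227 CPM in WT (SD, n = 2 each). Its highest libraries were WT replicate 2 and MIR15 replicate 1, so it did not share the order of the libraries in GT43A.

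IRX10-like a, one of the IRX10-type genes, had 50.9 and 49.3 CPM in MIR15 bark and 57.9 and 42.9 CPM in WT bark. Both MIR15 libraries lay between the WT libraries. IRX10-like b was counted at 29 and 31 reads in MIR15, against 55 and 18 reads in WT, which is 0.424 and 0.444 CPM in MIR15 and 0.664 and 0.234 CPM in WT. At such counts the WT replicates differed by a ratio of 2.84 with an exact 95% counting interval from 1.64 to 5.15, so its level in wild type is known only loosely. Intervals of this kind cover counting error only.

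**Figure D1:**
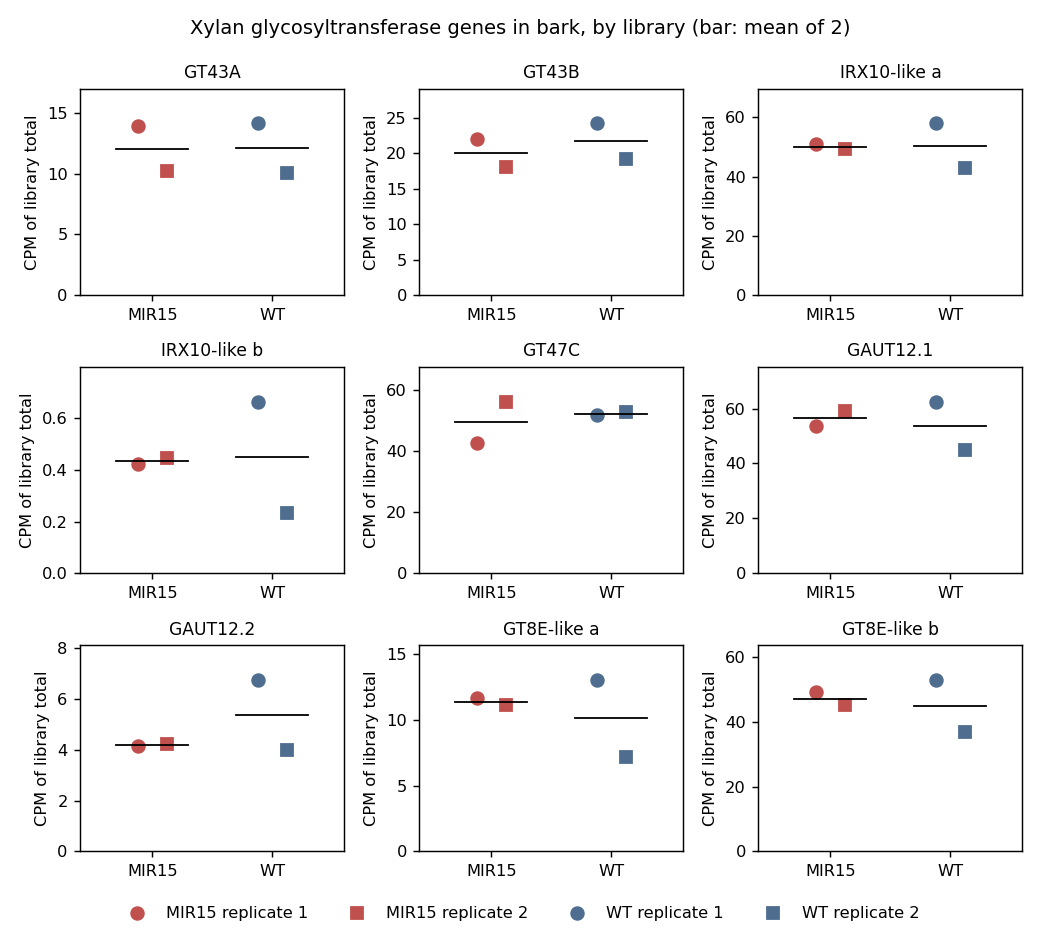
Level of each of the 9 xylan glycosyltransferase genes in CPM of the library total (linear axis from 0, one panel per gene), with MIR15 libraries in red and WT libraries in blue, circles for replicate 1, squares for replicate 2 and a bar at the mean of 2. WT replicate 1 is the highest point in 8 of the 9 panels, the exception being GT47C, and the genotypes overlap in all 9.

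Among the reducing-end genes, GT47C, the FRA8-type member, had 42.5 and 56.1 CPM in MIR15 replicates 1 and 2, against 51.6 and 52.6 CPM in WT replicates 1 and 2. The MIR15 libraries were the lowest and the highest of the 4, with the WT libraries between them.

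GAUT12.1, an IRX8-type gene, had 53.7 and 59.1 CPM in MIR15 and 62.5 and 45.0 CPM in WT. Both MIR15 libraries fell inside the WT range. Its paralog GAUT12.2 had 4.15 and 4.23 CPM in MIR15, against 6.75 and 4.01 CPM in WT. Here the MIR15 libraries were close to WT replicate 2, and WT replicate 1 was the one high library.

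GT8E-like a, one of the PARVUS-like genes, had 11.7 and 11.1 CPM in MIR15 and 13.1 and 7.23 CPM in WT. GT8E-like b had 49.3 and 45.2 CPM in MIR15 and 53.0 and 36.8 CPM in WT. In both genes the MIR15 libraries sat between the WT libraries, with WT replicate 2 the lowest of the 4.

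Summed over the 9 genes, the level was 251 ± 3.66 CPM in MIR15 and 251 ± 46.6 CPM in WT (SD, n = 2 each), a ratio of MIR15 to WT of 1.00. The 4 backbone genes came to 82.7 ± 6.59 CPM in MIR15 and 84.7 ± 17.4 CPM in WT, and the 5 reducing-end genes to 169 ± 10.3 CPM in MIR15 and 166 ± 29.2 CPM in WT (SD, n = 2 each). The means of the genotypes were thus closer to each other than the WT libraries were, which summed to 284 CPM in replicate 1 and 218 CPM in replicate 2. Means of 2 libraries vary less than single libraries do, so this alone does not show that the genotypes are alike.

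In 8 of the 9 genes, the WT replicates differed more from each other than the MIR15 replicates did, the exception being GT47C. WT replicate 1 was above WT replicate 2 in 8 of the 9 genes, where 46% of all 30975 tested genes were. The median ratio of WT replicate 1 to WT replicate 2 was 1.39-fold over the 9 genes and 0.981-fold over all tested genes. The ratio ran from 1.26 for GT43B (95% counting interval 1.18 to 1.35) to 1.81 for GT8E-like a (1.63 to 2.01), leaving out IRX10-like b and GT47C. GT47C was the gene for which the counting interval of the WT ratio, 0.940 to 1.02, held 1. For the other 8 it did not, so those WT libraries differed by more than counting error. Such intervals were not counted over all tested genes, so this count does not set the 9 apart. The median absolute log2 difference between the WT replicates was 0.471 over the 9 genes and 0.198 over all tested genes. The counting intervals compare 2 libraries, not conditions.

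The MIR15 replicates differed less in most of these genes and in no common direction. MIR15 replicate 1 was above MIR15 replicate 2 in 5 of the 9, against 46.1% of all tested genes, with a median ratio of 1.03-fold. The counting interval of the MIR15 ratio, likewise not counted over all tested genes, excluded 1 in 5 of the 9. Of these, GT43A had a ratio of 1.37 (95% counting interval 1.24 to 1.51), GT43B 1.22 (1.13 to 1.32) and GT8E-like b 1.09 (1.04 to 1.14). On the other side of 1 were GAUT12.1 at 0.909 (0.869 to 0.950) and GT47C at 0.758 (0.722 to 0.795). For comparison, the WT ratio was 1.40 for GT43A and 1.26 for GT43B; as the deposited columns number the MIR15 libraries otherwise, which MIR15 library belongs beside which WT library is not known.

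**Figure D2:**
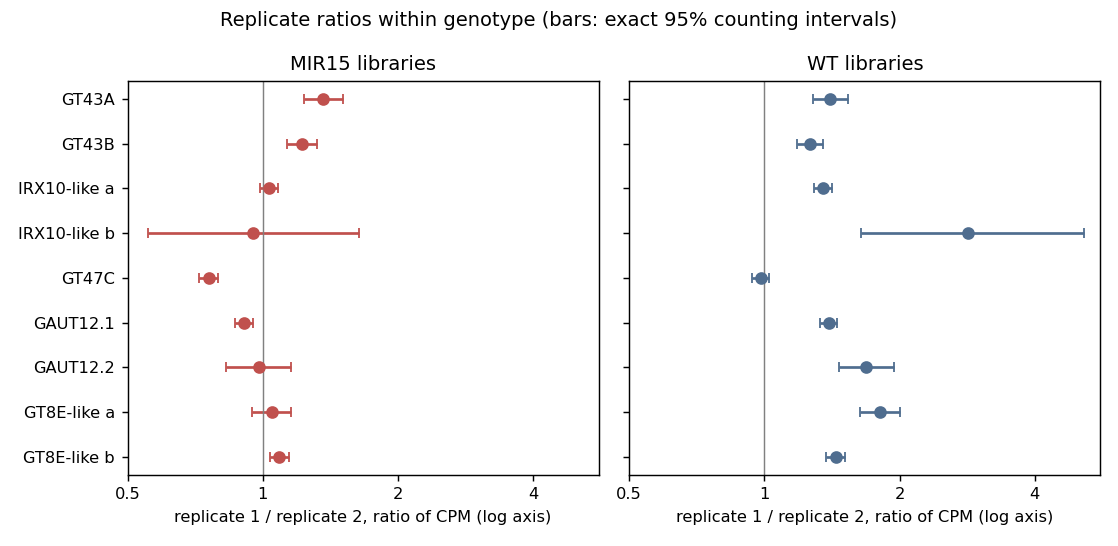
Ratio of replicate 1 to replicate 2 in CPM for each gene (log axis), MIR15 libraries on the left and WT libraries on the right, with exact 95% counting intervals as bars and a line at 1. In WT, 8 of 9 intervals lie above 1, whereas in MIR15 the ratios fall on both sides of 1, from 0.758 for GT47C to 1.37 for GT43A. The same count over all tested genes was not made.

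Set within each library, GT47C took 17.1% (exact 95% binomial interval 16.5 to 17.7) of the summed reads of the 9 genes in MIR15 replicate 1 and 22.1% (21.5 to 22.7) in MIR15 replicate 2, against 18.2% (17.7 to 18.7) in WT replicate 1 and 24.1% (23.5 to 24.8) in WT replicate 2. The share was lower in the library numbered 1 of each genotype, and the genotypes overlapped. In WT replicates 1 and 2, GT47C itself was nearly level at 51.6 and 52.6 CPM, while the 9 genes summed to 284 and 218 CPM. In MIR15 replicates 1 and 2 the sums were close, at 249 and 254 CPM, and GT47C itself had 42.5 and 56.1 CPM. GT47C was not alone in this direction in MIR15, where GAUT12.1 was also lower in replicate 1.

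The balance within the 4 paralog pairs was taken as the share of a pair's reads that fell on one member, which is not corrected for transcript length. It is compared between libraries, where length cancels. With 2 libraries per genotype, the smallest p that an exact two-sided permutation test can give is 0.333, so no pair could pass a threshold of 0.05.

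The genotypes did not overlap in 1 pair of 4, GAUT12. Among all tested genes, 25.1% had genotypes that did not overlap in CPM, a measure of single genes and not of pair shares. No background of pair shares was computed, so 1 of 4 cannot be set against a like share. GAUT12.2 took 7.17% (exact 95% binomial interval 6.38 to 8.02) and 6.68% (5.96 to 7.45) of the pair's reads in MIR15 replicates 1 and 2, against 9.75% (8.99 to 10.5) and 8.19% (7.33 to 9.11) in WT replicates 1 and 2. Its mean share was 6.92% in MIR15 and 8.97% in WT, a difference of -2.05 percentage points with an exact permutation p of 0.333. The intervals of MIR15 replicate 1 and WT replicate 2, the closest libraries of the genotypes, overlapped. Whether their difference exceeded counting error was not tested.

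In the GT43 pair, GT43B took 61.3% and 63.9% of the reads in MIR15 and 63.1% and 65.5% in WT. The genotypes overlapped, and the exact two-sided permutation p was 0.667. In the IRX10 pair, IRX10-like b took 0.825% and 0.893% of its reads in MIR15, against 1.13% and 0.541% in WT (exact permutation p = 1.00).

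In the PARVUS-like pair, GT8E-like a took 19.1% and 19.7% of the reads in MIR15 and 19.8% and 16.4% in WT (exact permutation p = 1.00). Here WT replicate 2 stood below the other 3 libraries: its exact binomial interval ran to 17.7%, below the lower bound of 17.95% in MIR15 replicate 1. The paralogs of this pair thus did not keep a fixed balance between the WT replicates.

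**Figure D3:**
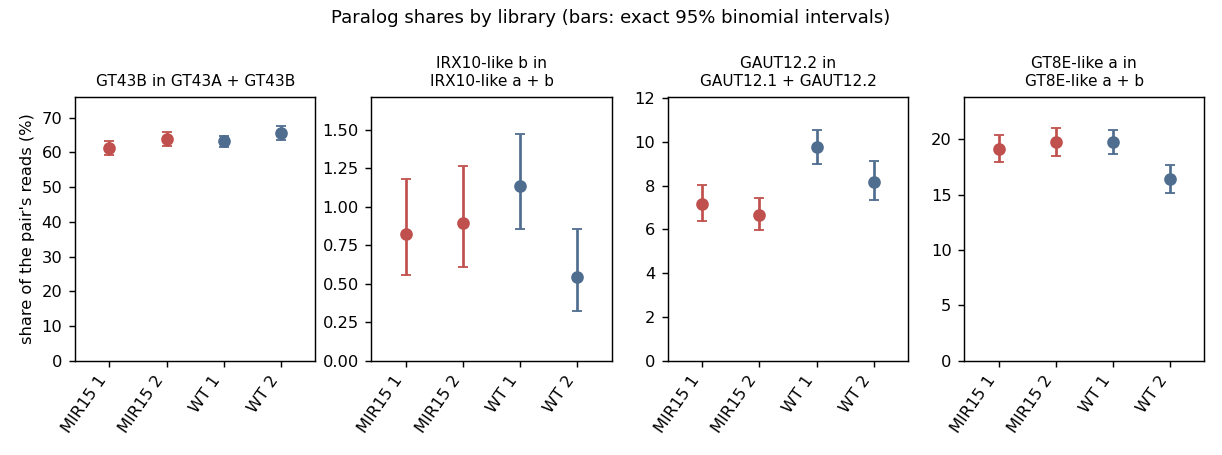
Share of a pair's reads, in percent, that fell on GT43B, IRX10-like b, GAUT12.2 and GT8E-like a, one panel per pair with its own axis from 0, for MIR15 (red) and WT (blue) libraries, with exact 95% binomial intervals as bars. Both MIR15 points lie below both WT points for GAUT12.2, at 7.17% and 6.68% against 9.75% and 8.19%, which is 1 pair of 4. The 25.1% of all tested genes with no overlap is of CPM, an unlike measure, and no background of pair shares was computed.

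Between the genotypes, none of the 9 genes passed edgeR's quasi-likelihood test, which gave each an adjusted p of 1.00 over all 30975 tested genes. In that test, 1 gene of the series was called, or 0.00323% of those tested, so a count of 0 among 9 does not set these genes apart from the rest. None of the 9 had an unadjusted p under 0.05 in edgeR, where 2.47% of all tested genes did, and DESeq2 also called none of them, with 0.0408% of all genes called. With the replicate number as a block, edgeR called 0.387% of all genes and again none of the 9. In none of the 9 were the genotypes free of overlap, against 25.1% of all tested genes. Their log2 fold changes of MIR15 over WT ran from -0.35 to 0.18, with 5 above 0 and 4 below and a median of 0.0079, beside a median of -0.00080 over all tested genes.

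The bounds that these libraries set on a change differed by gene. GT47C, the most narrowly bounded of the 9, had a log2 fold change of -0.06 ± 0.17 (SE), with a 95% interval of the fold from 0.731 to 1.25. IRX10-like a had 0.0079 ± 0.18 (SE), or 0.748-fold to 1.35-fold. For GT43A the value was 0.01 ± 0.25 (SE), an interval from 0.672-fold to 1.52-fold, and for GT43B it was -0.10 ± 0.20 (SE), or 0.679-fold to 1.29-fold. These 4 values were smaller than their errors.

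GAUT12.1 had a log2 fold change of 0.09 ± 0.19 (SE), with a 95% interval from 0.778-fold to 1.45-fold, and GT8E-like b had 0.09 ± 0.20 (SE), from 0.765-fold to 1.48-fold. GAUT12.2 had the smallest p of the 9, an unadjusted 0.286 in edgeR. The log2 fold change of GAUT12.2 was -0.35 ± 0.30 (SE), or 0.481-fold to 1.28-fold, and its mean was 4.19 ± 0.0571 CPM in MIR15 and 5.38 ± 1.94 CPM in WT (SD, n = 2 each). GT8E-like a had the highest value, 0.18 ± 0.29 (SE), or 0.708-fold to 1.81-fold, at 11.4 ± 0.376 CPM in MIR15 and 10.1 ± 4.13 CPM in WT (SD, n = 2 each). For IRX10-like b, with under 60 reads in any library, the interval ran from 0.342-fold to 2.77-fold. None of these intervals excludes 1, and none shows that the genotypes are alike.

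For 8 of the 9 genes, the difference between the genotype means on the log2 scale was smaller than that between the WT replicates, and for 6 it was smaller than that between the MIR15 replicates. These counts were not made over all tested genes. Means of 2 libraries vary less than single libraries do, so a smaller difference between means is no sign of likeness. Over all tested genes, the median absolute log2 difference was 0.118 between genotypes, 0.198 between WT replicates and 0.211 between MIR15 replicates. Over the 9 genes it was 0.093, 0.471 and 0.122, respectively, so here the WT replicates differed most. In 8 of the 9 genes, the sign of the contrast depended on which WT library was kept. This was not counted over all tested genes, whose median log2 fold change was 0.0099 without WT replicate 1 and 0.0066 without WT replicate 2. The turns restate the WT spread, as both MIR15 libraries lay between the WT libraries in 7 of the 9 genes. GT47C stayed at -0.06 with either WT library left out, and turned to 0.11 without MIR15 replicate 1. Leaving out MIR15 replicate 1 reversed 3 of the 9 signs, and leaving out MIR15 replicate 2 reversed 1. Without WT replicate 1, 8 of the 9 log2 fold changes were above 0, with a median of 0.30. Without WT replicate 2, all 9 were below 0, with a median of -0.20. No gene passed the edgeR test in either case (lowest adjusted p = 0.649 and 1.00). GT8E-like a had a log2 fold change of 0.69 without WT replicate 1 and of -0.19 without WT replicate 2. GAUT12.2 stood at -0.68 without WT replicate 2 and turned to 0.10 without WT replicate 1.

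**Figure D4:**
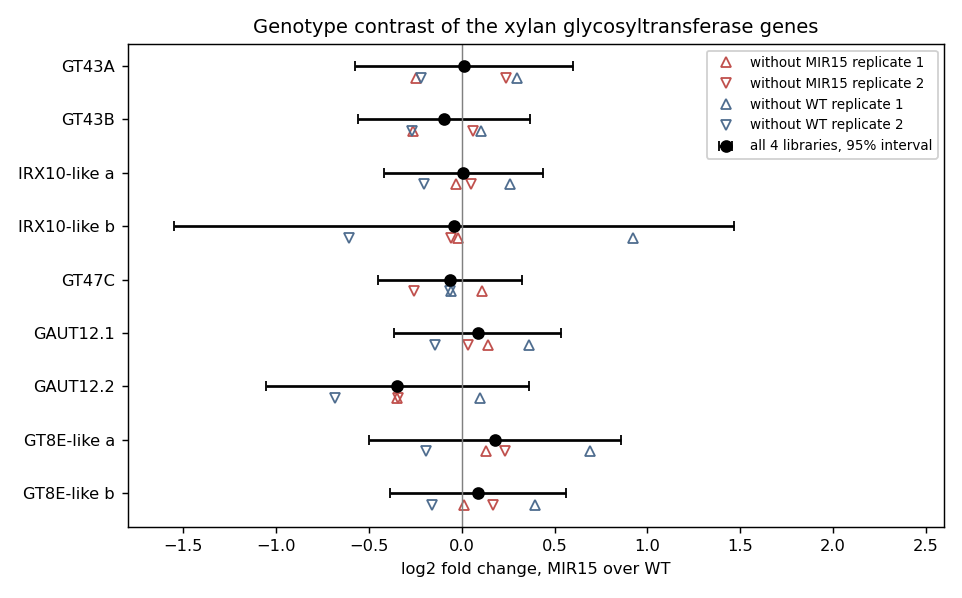
Log2 fold change of MIR15 over WT for each gene from the edgeR fit (black points, 95% intervals as bars), with the values obtained when a single library was left out as open triangles. All 9 intervals span 0, and leaving out WT replicate 1 or WT replicate 2 moves 8 of the genes to opposite sides of their black points, with GT47C close to unmoved. The same count over all tested genes was not made.

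IDs listed for other genes of the xylan pathway and of the same wall were set beside these. They too were not checked against an annotation. A list of 8 IDs, written from textbook knowledge of poplar for IRX14-type GT43 genes, GUX-type genes that add glucuronic acid side chains and RWA-type genes needed for xylan acetylation, was tested in full, and edgeR called 0 of 8 higher and 0 of 8 lower, with none at an unadjusted p under 0.05; DESeq2 also called none. Of these log2 fold changes 1 was above 0 and 7 were below, between -0.14 and 0.0089, and the median was -0.07. The member with the smallest p, Potri.001G352300.1, had 70.7 and 67.6 CPM in MIR15 and 85.5 and 68.7 CPM in WT, with a log2 fold change of -0.14 ± 0.17 (SE) and an edgeR adjusted p of 1.00. Both MIR15 libraries of this gene lay near WT replicate 2, with WT replicate 1 above the rest. The median turned to 0.06 without WT replicate 1 and to 0.0062 without MIR15 replicate 2, and was -0.23 without MIR15 replicate 1.

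The 5 IDs listed for the cellulose synthases of the secondary wall, the enzymes that make the cellulose with which xylan is laid down, likewise held no call in edgeR, with 0 of 5 at an unadjusted p under 0.05 and none called by DESeq2. Their median log2 fold change was 0.04, against 0.31 without WT replicate 1 and -0.20 without WT replicate 2. Potri.018G103900.1, with the smallest p of the list, had 102 and 105 CPM in MIR15 and 114 and 84.9 CPM in WT, with both MIR15 libraries between the WT libraries. WT replicate 1 was above WT replicate 2 in 5 of the 5 IDs listed for cellulose synthases and in 7 of the 8 other xylan IDs. The median ratios were 1.35-fold and 1.15-fold, beside 8 of 9 and 1.39-fold in the glycosyltransferases. In MIR15, replicate 1 was above replicate 2 in 1 of the 5 and in 5 of the 8. What sets the WT libraries apart in these genes was not tested.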

How the data were processed

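For each gene and library the authors deposited unique gene reads and total gene reads as counts, made with CLC per the file headers, and a DESeq-normalised signal, which DESeq produced per the submitters' processing notes (no version) and which equals the deposited total reads times 1 constant per library, from 0.898 to 1.10; this signal was only checked. Aligner settings, genome build, annotation and the handling of reads that match several genes are not given in the sources that were used here. Groups and replicate numbers follow the sample titles; per the file headers, the columns of MIR15 replicates 1 and 2 are numbered 2 and 3.

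EdgeR 4.0.16 (R 4.3.3; filterByExpr, TMM, quasi-likelihood F test, two-sided, genotype as the sole term) was run on total gene reads, with Benjamini-Hochberg adjustment over the 30975 genes tested of 41335 and a threshold of 0.05. TMM factors ran from 0.983 to 1.02. SEs come from the F statistic. The 95% intervals come from the SE and the total degrees of freedom of the test, residual plus prior (median prior 5.28). The fit was tested on simulated data. Set-wide replicate ratios used a pseudocount of 0.5 CPM.

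Alternatives were RLE size factors, library totals alone, no filter, a mean of at least 5 CPM, DESeq2 1.42.0, unique reads, a replicate block, and leaving out each library. The genes named are the 9 members, the list member with the smallest p, and a member's neighbour by ID if among the 3 genes with most reads. Members and lists were chosen with earlier results of these data known.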

Additional observations from a re-analysis of the deposited data

How the results depend on the processing

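Among the 9 glycosyltransferase genes, the count called was 0 in all alternatives run; with the 5 CPM filter, 7 of the 9 were tested. Over all genes, edgeR called 1 gene, against 14 with DESeq2, 0 with the 5 CPM filter, 0 in unique reads and 120 with the replicate block, which called 0 of the 9; leaving out single libraries gave 0 to 8. At these counts of 0, edgeR gave 389 and 768 genes with an unadjusted p under 0.05 for the filter and for unique reads, and 882 and 1351 without MIR15 replicates 1 and 2. Same-numbered libraries deviated together over all tested genes (correlation 0.22), but with only 2 pairs, no label on a shared origin and other numbers (2 and 3) in the MIR15 column headers, they were not taken as paired, and the block follows the titles alone; under the block IRX10-like b (Potri.003G162000.1) turned to 0.12 on the log2 scale.

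With library totals alone, the median of the 9 turned to -0.0088, GT43A (Potri.006G131000.1) to -0.0053 and IRX10-like a (Potri.001G068100.1) to -0.0088, where the median of all genes was -0.02. With single libraries left out, where the lone sample of a genotype is assumed to vary like the others, the median ran from -0.20 to 0.30 for the 9 genes, from -0.23 to 0.060 for the other xylan list and from -0.20 to 0.31 for the cellulose synthases. Log2 fold changes then ran from -0.25 to 0.30 for GT43A, -0.27 to 0.10 for GT43B (Potri.016G086400.1), -0.20 to 0.26 for IRX10-like a, -0.61 to 0.92 for IRX10-like b, -0.26 to 0.11 for GT47C (Potri.009G006500.1), -0.14 to 0.36 for GAUT12.1 (Potri.001G416800.1), -0.68 to 0.10 for GAUT12.2 (Potri.011G132600.1), -0.19 to 0.69 for GT8E-like a (Potri.002G132900.1) and -0.16 to 0.40 for GT8E-like b (Potri.014G040300.1). They ran from -0.30 to 0.045 for Potri.001G352300.1, -0.14 to 0.32 for Potri.018G103900.1 and -0.0071 to 0.16 for Potri.006G130900.1.

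Differences of pair shares, MIR15 minus WT for the first-named member, ran from 0.477 to 3.05 percentage points for GT43A, -0.318 to 0.275 for IRX10-like a, 1.27 to 2.83 for GAUT12.1 and -0.328 to 3.03 for GT8E-like a. In unique reads scaled to unique totals, mean levels moved past the replicate SD to 53.0 CPM for IRX10-like a, 0.459 for IRX10-like b, 4.43 for GAUT12.2 and 12.0 for GT8E-like a in MIR15, and to 55.6 CPM for GT47C in WT; the smaller unique total raises every such level. The causes of the other turns were not tested.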

Other observations

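The lowest library of GT47C, MIR15 replicate 1, was also the lowest in some of the other xylan IDs, chosen after their values were seen. How many of all tested genes were lowest in that library was not counted, so this likeness cannot be weighed. Potri.010G148500.1, from the RWA-type IDs, had 51.8 and 68.6 CPM in MIR15 replicates 1 and 2, against 62.5 and 58.6 CPM in WT replicates 1 and 2. Potri.008G102300.1, also listed there, had 42.8 and 56.5 CPM in MIR15 and 53.3 and 57.4 CPM in WT. As in GT47C, MIR15 replicate 1 was the lowest of the 4 libraries in both genes, but neither had the full order of GT47C. The other RWA-type IDs were divided. Potri.011G079400.1 was lowest in MIR15 replicate 1, at 16.1 CPM, and Potri.001G352300.1 in MIR15 replicate 2, at 67.6 CPM. The IDs listed for IRX14-type genes went the other way: Potri.007G047500.1 had 54.5 and 41.4 CPM in MIR15 and 54.3 and 46.7 CPM in WT, with the library numbered 1 in the titles the higher in each genotype, as in GT43A and GT43B. That order was not particular to these genes. IRX10-like a, GT8E-like a and b, Potri.001G352300.1 and the GUX-type IDs also had it. Of the GUX-type IDs, Potri.005G061600.1 had 12.5 and 7.07 CPM in MIR15 and 12.9 and 7.54 CPM in WT. In the cellulose synthase list, 1 of the 5 IDs had it.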
